A study of Mus musculus with 2 samples.

Results

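From the 27998 genes in the count tables, 10 genes of the glucocorticoid, fasting and cell stress responses were followed across the cell classes of the newborn mouse brain: Fkbp5, Sgk1, Tsc22d3, Pdk4, Txnip, Arrdc4, Ddit4, Cdkn1a, Mt1 and Mt2. They were chosen by their molecule counts in these same libraries, with Arrdc4 and Cdkn1a picked as higher in the knockout library, so all values below are descriptions and none of them was tested. All 10 had at least 50 molecules over both libraries, as did 14672 genes in all. The study asked how loss of STING, an adaptor of cytosolic DNA sensing encoded by Tmem173, alters the neonatal cortex. One library came from P0 wild type (WT) C57BL/6 mice and 1 from P0 STINGf/f;Nestin-Cre mice (cKO), both labelled as telencephalic tissue and described in the methods as papain-dissociated cerebral cortex run on a droplet platform that counts unique molecular identifiers (UMIs). The paper's account of the single-cell data calls the control both STINGfl/fl and wild type, and the label reads WT. The Nestin promoter drives Cre in the neural lineage, and the number of animals behind each library is not given in the sources used here. With 1 library per genotype there is no replicate check: intervals are 95% intervals of counting error only, and genotype, animal, sex and library preparation cannot be told apart.

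Glucocorticoids bind the glucocorticoid receptor (Nr3c1), which enters the nucleus and activates genes with glucocorticoid response elements. Among these, Fkbp5 encodes a co-chaperone that dampens the receptor, Sgk1 a serum- and glucocorticoid-regulated kinase, and Tsc22d3 the leucine zipper protein GILZ. Pdk4 encodes a kinase that shuts off pyruvate dehydrogenase in fasting. Txnip and Arrdc4 encode related alpha-arrestins that lower glucose uptake and are transcribed when the glucose-sensing factor MondoA binds their promoters. Ddit4 (REDD1) restrains mTOR complex 1, Cdkn1a encodes the cell cycle inhibitor p21, and Mt1 and Mt2 encode the metal-binding metallothioneins.

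The libraries held 69554624 UMIs in 10715 barcodes (WT) and 67448785 UMIs in 9198 barcodes (cKO), of which 6566 and 5929 cells were kept, with medians of 6537 and 7515 UMIs. A set of 19 barcodes occurred in both libraries, 8 of them among the kept cells. The deleted gene, Tmem173, counted 126 UMIs (WT) against 18 (cKO) over all kept cells. Over the same cells endothelial markers were at 617.6 CPM in WT and 205.2 in cKO and microglial markers at 267.7 and 191.8. The part of this mix of cells in the Tmem173 counts was not tested. The cortical marker Emx1 counted 2341 and 4642 UMIs. Xist had 10 UMIs in WT against 70388 in cKO, and 4 Y-linked genes had 9701 against 6, so the libraries differed in sex, which bears on the X-linked Tsc22d3. Clustering on values scaled within each library gave 35 clusters, of which 32 were named from marker genes. The unnamed ones were led by DNA replication genes (217 WT and 176 cKO cells), by Rgs5 and Vtn (54 and 10) and by Higd1b and Rgs5 (14 and 8). The unnamed clusters with Rgs5 had both mural and endothelial markers among their leading genes and entered neither class. Without scaling within each library the libraries stood apart, and 7 of 34 clusters, holding 35.4% of cells, were over 90% from 1 library, against 0 of 35 with it. Of the classes, 9 classes held at least 20 cells in each library. These were projection neurons (2567 WT and 2741 cKO cells), GABAergic neurons (1684 and 1414), Cajal-Retzius cells (65 and 79), intermediate progenitors (435 and 549), cycling progenitors (317 and 196), radial glia/astrocytes (642 and 460), oligodendrocyte precursor cells (OPCs; 286 and 145), endothelial cells (144 and 79) and mural cells (24 and 22). Endothelial cells are not of the neural lineage. Whether the Cre acted in endothelial or mural cells was not examined, since Tmem173 was counted over all kept cells only.

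Levels are given as CPM, the UMIs of a gene per 1000000 UMIs of its class, and a gene was called higher or lower where cKO and WT CPM differed by at least 2-fold and both libraries together held at least 50 UMIs of it. Over all kept cells, 1 of the 10 genes, Arrdc4, was at least 2-fold higher in cKO, where 2.69% of the 14672 genes were, and 0 were at least 2-fold lower, where 19.9% were (5.85% higher and 13.4% lower with TMM factors). Vessel and blood markers differed over the same cells, 8 endothelial markers with 617.6 CPM in WT and 205.2 in cKO, 7 mural markers with 254.8 and 98.5 and 5 erythroid markers with 1159 and 354.4, and their part in the ratios over all kept cells was not tested. The median log2 ratio of the 10 genes was 0.24, beside -0.25 over all genes, and scaling by TMM factors would raise every ratio over all kept cells by 0.26 and in projection neurons by 0.22. In projection neurons 1 of 9 genes with enough UMIs was higher (Arrdc4, against 4.30% of all genes) and 1 was lower (Cdkn1a, against 17.5%). In GABAergic neurons 2 of 9 were higher (Arrdc4 and Mt2, against 4.46%) and 0 lower (13.8%). In Cajal-Retzius cells 1 of 4 was higher (Arrdc4, against 2.95%) and 0 lower (5.16%). In intermediate progenitors 2 of 7 were higher (Fkbp5 and Arrdc4, against 4.16%) and 0 lower (13.0%). In cycling progenitors 4 of 9 were higher (Arrdc4, Cdkn1a, Mt1 and Mt2, against 3.52%) and 0 lower (8.34%). In radial glia/astrocytes 4 of 10 were higher (Sgk1, Arrdc4, Cdkn1a and Mt1, against 3.23%) and 0 lower (10.1%). In OPCs 3 of 7 were higher (Arrdc4, Mt1 and Mt2, against 4.28%) and 0 lower (8.85%). In endothelial cells 6 of 7 were higher (Sgk1, Tsc22d3, Txnip, Arrdc4, Ddit4 and Cdkn1a, against 5.85%) and 0 lower (12.8%). In mural cells 2 of 3 were higher (Sgk1 and Mt1, against 7.42%) and 0 lower (5.82%). Because these genes were chosen with their ratios in view, nothing is read from the counts against the background. Some pairs reached 50 UMIs only through the library in which the gene was high. Among them were Sgk1 (1 and 54 UMIs) and Mt1 (15 and 41) in mural cells and Sgk1 in radial glia/astrocytes (15 and 36). Others were Ddit4 in endothelial cells (17 and 86) and Mt2 in OPCs (20 and 74). Calls of such pairs depend on that filter and are a description. Of 65 pairs of gene and class, 25 were at least 2-fold higher in cKO and 1 was lower, beside 4.12% and 11.7% of all such pairs. The median log2 ratio of the counted genes ran from 0.17 in projection neurons to 1.87 in endothelial cells. Closest to the limit on the inside were Mt1 in radial glia/astrocytes (log2 ratio 1.00) and Fkbp5 in intermediate progenitors (1.01), and on the outside Txnip in mural cells (0.99).

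**Figure D1:**
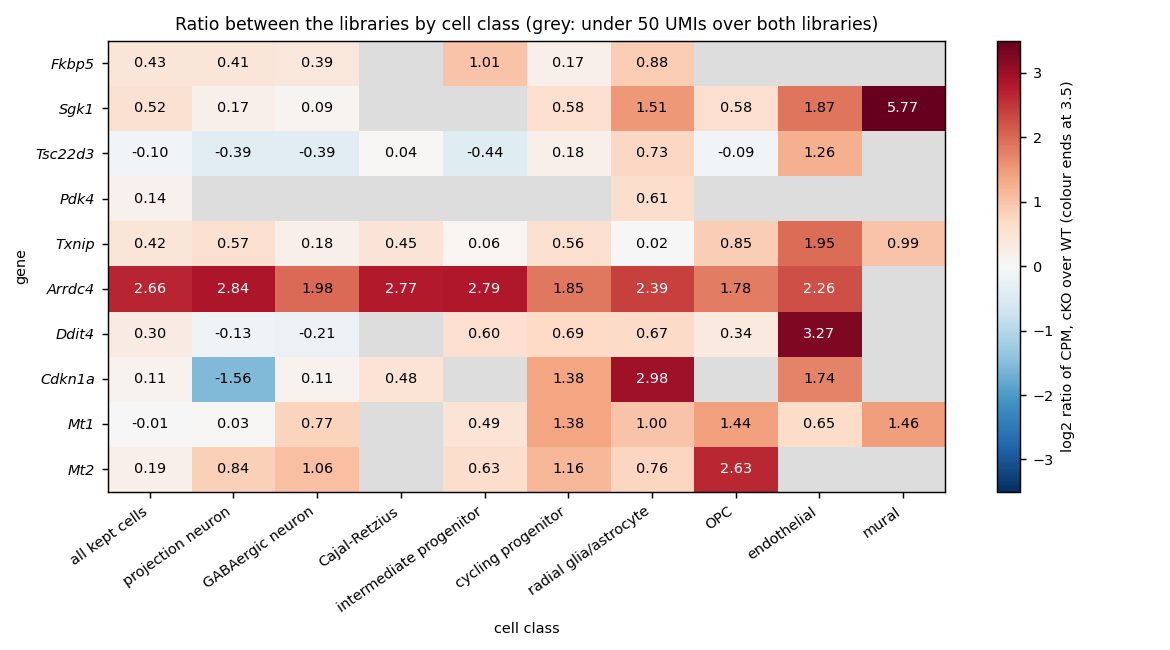
Log2 ratio of CPM, cKO over WT, for each gene (rows) over all kept cells and in the 9 compared cell classes (columns); red is higher in cKO, blue is lower, and grey marks pairs with under 50 UMIs. The Arrdc4 row is red in 8 of 9 classes, from 1.78 in OPCs to 2.84 in projection neurons, and grey in mural cells (1 and 9 UMIs), and the endothelial column holds 6 ratios above 1. Sgk1 in mural cells (5.77) lies beyond the end of the colour scale.

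Sgk1 was at least 2-fold higher in cKO in endothelial cells, mural cells and radial glia/astrocytes. Endothelial cells held 263 Sgk1 UMIs in WT (146 CPM) and 502 in cKO (531.6 CPM), a log2 ratio of 1.87 (95% interval 1.65 to 2.09). The clusters of endothelial cells with enough UMIs had near values, the one led by Egfl7 and Itm2a with a log2 ratio of 1.85 and the one led by Flt1 and Ly6c1 with 1.89. In mural cells, the pericytes and smooth muscle cells around vessels, 1 Sgk1 UMI was found in WT and 54 in cKO (7.85 and 427.2 CPM), a log2 ratio of 5.77 with an interval from 3.23 to 11.1. Sgk1 UMIs were present in 90.9% of the 22 cKO mural cells and in 4.17% of the 24 WT mural cells. Microglia/macrophages, too few to be compared as a class (36 and 18 cells), held 10 UMIs in WT and 42 in cKO. In neurons as a class the levels were near each other: projection neurons held 1038 UMIs in WT and 1307 in cKO (40.2 and 45.4 CPM, log2 ratio 0.17), and GABAergic neurons 119 and 124 (0.09). The projection neuron ratio turned to -0.19 with a stricter cell filter (1000 or more genes per cell, no more than 5% of UMIs mitochondrial). Within projection neurons the cluster led by Fxyd7 and Slc17a7 was lower in cKO, with 51 and 19 UMIs (-1.09). OPCs, the neural class with the highest Sgk1 level, had 75.1 CPM in WT and 112.3 in cKO (log2 ratio 0.58). Radial glia/astrocytes held few Sgk1 UMIs, 15 in WT and 36 in cKO (log2 ratio 1.51, interval 0.60 to 2.48), and without a cell filter the ratio fell under 2-fold (0.88). With every cell thinned to 1000 UMIs, 16.8% of WT and 41.8% of cKO endothelial cells (intervals 10.7 to 24.5 and 29.9 to 54.5; 19 and 12 shallower cells left out) held a Sgk1 UMI, against 0.157% and 0.885% of radial glia/astrocytes. Unthinned, the endothelial shares were 51.4% and 67.1%, at median depths of 6966 and 7540 UMIs, and those of radial glia/astrocytes 2.18% and 6.09%, at 6626 and 8258.

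Sgk1 lies at chr10:21882184-21999903 on the plus strand (GRCm38, GENCODE M21), and RefSeq lists 6 starts for it. The 250 bases before 1 of these starts were chr10:21993640-21993889 (plus strand, RefSeq, GRCm38.p6). They are shown because they hold the only match to the full glucocorticoid response element in the windows searched for the 10 genes. Capitals mark the match, TGTTCT and its reverse complement 3 bases apart.

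Sgk1: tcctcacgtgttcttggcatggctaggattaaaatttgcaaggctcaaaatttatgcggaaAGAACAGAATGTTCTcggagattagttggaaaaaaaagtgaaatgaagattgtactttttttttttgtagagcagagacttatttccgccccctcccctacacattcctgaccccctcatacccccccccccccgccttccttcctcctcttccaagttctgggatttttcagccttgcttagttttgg

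This palindrome was searched on both strands and was found in 3 of 32851 RefSeq windows of this length (0.00913%). One side of it, TGTTCT, was found in 16.1% of windows and, among the 10 genes, in windows of Sgk1 and Tsc22d3. A match is a match of letters and not a measured binding site.

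Tsc22d3, at chrX:140539528-140600659, had ratios of both signs. Its total was 3512 UMIs in WT against 3216 in cKO (63.4 and 59.2 CPM), a log2 ratio of -0.10 that became 0.19 with median-of-ratios scaling. Endothelial cells held 273 UMIs in WT and 342 in cKO (151.5 and 362.2 CPM), a log2 ratio of 1.26 (interval 1.02 to 1.49). This fell under 2-fold without cells over 30000 UMIs (0.98), with the mean of each cell's CPM (0.75) and within the clusters led by Egfl7 (0.87) and Flt1 (0.89). In radial glia/astrocytes the counts were 253 and 355 (54.9 and 91.1 CPM, log2 ratio 0.73). Within that class the cluster led by Aqp4 and Pla2g7 was above 2-fold, with 104 and 167 UMIs (44.2 and 125.5 CPM, interval of the log2 ratio 1.14 to 1.87), and the one led by Aldoc and Clu had 149 and 188 (0.15, interval -0.17 to 0.47). The Aqp4-led cluster held 336 WT and 165 cKO cells and the Aldoc-led one 306 and 295. The part of this mix in the ratios of the class was not tested. Projection neurons counted 1500 UMIs in WT and 1281 in cKO (58.1 and 44.5 CPM), a log2 ratio of -0.39, and GABAergic neurons 502 and 376, also -0.39. Intermediate progenitors, at 84.2 CPM in WT and 62.2 in cKO, had a log2 ratio of -0.44. The intervals of all 3 lay below 0, although none of these class ratios reached 2-fold. Among 26 clusters, 10 had an interval below 0 and 4 above it, 3 were at least 2-fold lower and 1, the Aqp4-led one, was higher. The lower ones were the GABAergic clusters led by Isl1 and Tac1 (59 and 19 UMIs, log2 ratio -1.26) and by Dlx6os1 and Sp8 (130 and 30, log2 ratio -1.23) and the cycling progenitors led by Ube2c and Top2a (51 and 20, log2 ratio -1.05).

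Fkbp5, at chr17:28399094-28517527, was at least 2-fold higher in cKO in intermediate progenitors alone among the 5 classes with enough UMIs, all of them neural. Projection neurons held 397 UMIs in WT and 589 in cKO (15.4 and 20.5 CPM, log2 ratio 0.41), and GABAergic neurons 156 and 200 (0.39). Intermediate progenitors held 23 in WT and 69 in cKO (8.61 and 17.3 CPM), a log2 ratio of 1.01 with a wide interval from 0.31 to 1.76. It was past 2-fold in 6 of 13 settings and ran from 0.43 without centring by library to 2.61 with the stricter cell filter. Radial glia/astrocytes held 20 and 31 (log2 ratio 0.88, interval 0.02 to 1.76). Cycling progenitors held 64 and 55, a log2 ratio of 0.17 with an interval from -0.38 to 0.71, which turned to -0.08 with the stricter filter. Endothelial cells, in which Sgk1 and Tsc22d3 were higher, held only 23 Fkbp5 UMIs in WT and 8 in cKO, or 12.8 and 8.47 CPM.

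Of 11 listed genes of the glucocorticoid receptor machinery 10 had enough UMIs over all kept cells and 0 differed 2-fold, where 2.69% of all genes were higher and 19.9% lower, although Nr3c2, the mineralocorticoid receptor, was higher in projection neurons (30 and 73 UMIs, log2 ratio 1.12). Nr3c1 had 23.5 CPM in WT and 20.8 in cKO (log2 ratio -0.18), and in endothelial cells 71 and 85.8 CPM (0.27). The receptor coactivator Ncoa1 was higher in endothelial cells (58 and 75 UMIs, log2 ratio 1.30, interval 0.79 to 1.82), 1 of 8 genes measured there, where 5.85% of all genes were higher and 12.8% lower. All gene lists were chosen with earlier results of these data known, so nothing is read from their counts beside the shares of all genes. A list of 18 other glucocorticoid-induced genes, 17 of them in the count tables, had 9 with enough UMIs in endothelial cells. Of these, 4 were at least 2-fold higher in cKO and 0 lower, where 5.85% and 12.8% of all genes were, with a median log2 ratio of 0.28 beside -0.05 over all genes. Klf9, a transcription factor, had 48 UMIs in WT and 158 in cKO (log2 ratio 2.65). Zbtb16, which encodes the zinc finger factor PLZF, had 2 and 55 (5.71, interval 3.79 to 8.80). Edn1, the vasoconstrictor endothelin-1, had 147 and 373 (2.28). Per1, which is also a core gene of the circadian clock, had 39 and 96 (2.23). Dusp1, Nfkbia and Cebpb of the same list had log2 ratios of 0.28, 0.18 and 0.25, and Tgm2 (80 and 24 UMIs, log2 ratio -0.80, interval -1.53 to -0.13) and Angptl4 (219 and 91, log2 ratio -0.34, interval -0.70 to 0.02) were on the other side of 0. Over all kept cells, where 2.69% of all genes were higher and 19.9% lower, 1 of 15 measured genes was higher, Per1 (585 and 2176 UMIs, log2 ratio 1.92), and 3 were lower, Angptl4 (-2.13), the transglutaminase gene Tgm2 (-1.89) and Bcl6 (-2.27). Endothelial cells held 219 of the 926 WT UMIs of Angptl4 and 80 of the 162 of Tgm2, and endothelial markers over all kept cells were at 617.6 CPM in WT and 205.2 in cKO.

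In radial glia/astrocytes 11 genes of that list had enough UMIs, of which 4 were at least 2-fold higher and 1 lower, beside 3.23% and 10.1% of all genes. Per1 (94 and 656 UMIs, log2 ratio 3.05), Klf9 (456 and 833, log2 ratio 1.11), Zbtb16 (12 and 61, log2 ratio 2.59) and Hif3a (10 and 43, log2 ratio 2.35) were higher. Angptl4, a secreted lipase inhibitor that is also a fasting gene, was lower, with 304 UMIs in WT and 37 in cKO (-2.80). Projection neurons, with 10 genes measured, had 1 higher and 3 lower, beside 4.30% and 17.5% of all genes: Per1 was higher (1.31), and Bcl6, a transcriptional repressor, had 295 and 43 UMIs (-2.94), Map3k6 -1.34 and Klf15 -1.88. Klf9 in projection neurons had 675 UMIs in WT and 619 in cKO (-0.28). Per1 was at least 2-fold higher in cKO in each of 8 classes with enough UMIs, mural cells not among them, from 1.08 in Cajal-Retzius cells and highest in OPCs, with 7.90 CPM in WT and 89.2 in cKO.

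**Figure D2:**
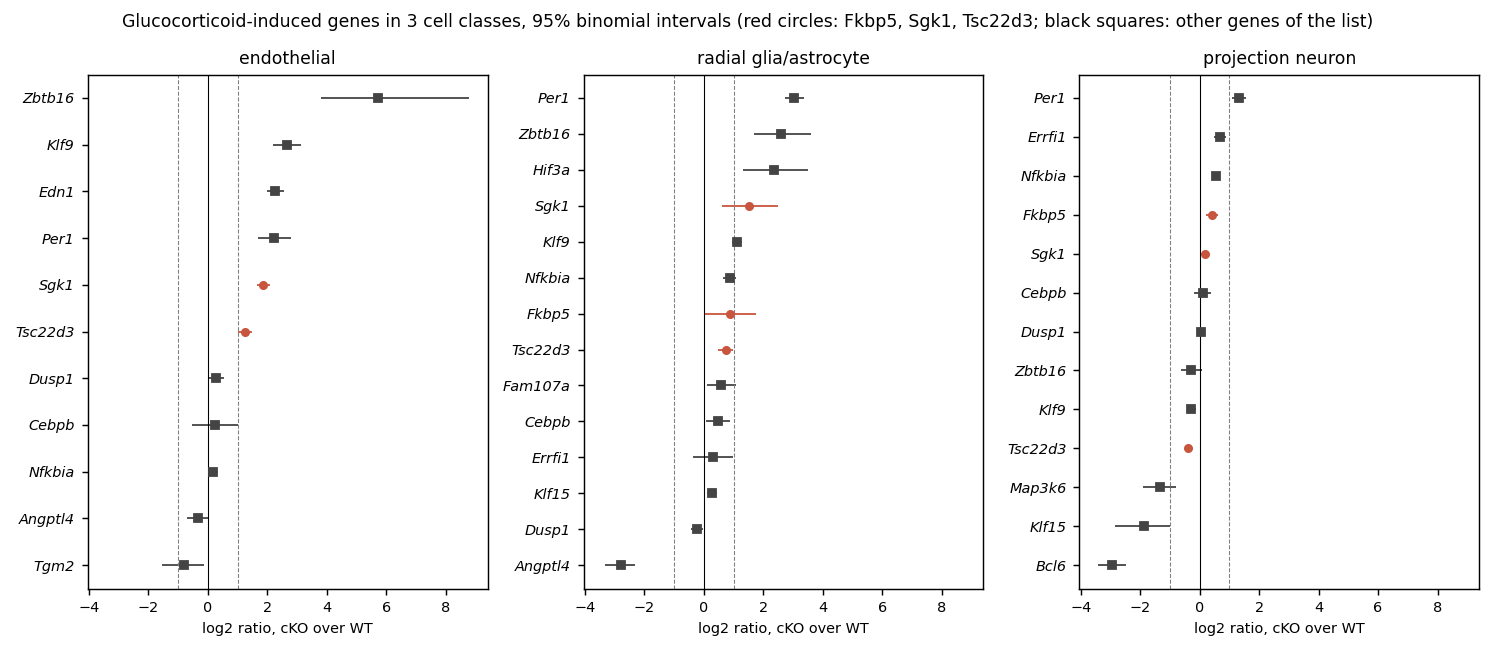
Log2 ratio of CPM, cKO over WT, with 95% intervals in endothelial cells, radial glia/astrocytes and projection neurons for Fkbp5, Sgk1 and Tsc22d3 (red circles) and for other glucocorticoid-induced genes (black squares) with at least 50 UMIs; dashed lines mark 2-fold. In endothelial cells Zbtb16, Klf9, Edn1, Per1, Sgk1 and Tsc22d3 lie beyond the 2-fold line, whereas in projection neurons only Per1 does so on the side of cKO. The genes shown were chosen with earlier results of these data known.

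The endothelial class differed between libraries in other ways as well. Its summed level of 5 erythroid markers was 3236 CPM in WT and 9761 in cKO, and that of 8 microglial markers was 62.7 CPM in WT, with 4 markers detected, and 345.2 in cKO, with all 8 detected. Its own 8 markers were at 8526 and 7265 CPM and 7 mural markers at 388 and 297.6. The class held 15361 of the 34233 WT and 6861 of the 11155 cKO UMIs that these 8 endothelial markers had over all kept cells. A list of 10 immediate early and dissociation genes summed to 1869 CPM in WT and 2711 in cKO in endothelial cells and to 1757 and 3853 in mural cells. Their part in the Sgk1, Tsc22d3, Txnip, Ddit4 and Cdkn1a ratios was not tested. Mural cells held endothelial markers at 1098 CPM in WT and 506.4 in cKO (140 and 64 UMIs, 7 of 8 detected in each) and their own markers at 19228 and 14004, and the part of these in the mural Sgk1 ratio was not tested. They held 1 erythroid UMI in each library, and 8 and 10 UMIs of 1 of the 8 microglial markers. Of the UMIs of the 7 mural markers over all kept cells, the mural class held 2451 of 14123 in WT and 1770 of 5356 in cKO. The part of the vessel cells outside the named classes in the endothelial and mural ratios was not tested. The endothelial class included a cluster of deep cells (median 47609 UMIs), with 15 cells in WT and 2 in cKO. Without cells over 30000 UMIs the endothelial log2 ratios were 1.81 for Sgk1, 1.64 for Txnip, 2.85 for Ddit4 and 1.78 for Cdkn1a. The part of these deep cells in the endothelial ratios of the list genes, such as Klf9, Zbtb16, Edn1 and Per1, was not tested.

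Pdk4, at chr6:5483351-5496309, was found mainly in radial glia/astrocytes. All kept cells held 131 Pdk4 UMIs in WT and 142 in cKO, and 76 and 98 of these were in radial glia/astrocytes (16.5 and 25.2 CPM), a log2 ratio of 0.61 (interval 0.16 to 1.06). The Aqp4-led cluster had 34 and 46 UMIs (1.26, interval 0.59 to 1.94) and the Aldoc-led cluster 42 and 52 (0.13, interval -0.49 to 0.75). In projection neurons 3 and 2 UMIs were found and in OPCs 0 and 0, which allows up to 1.98 CPM in WT and 3.30 in cKO there (3 UMIs of the class total). Of 19 other fasting genes, the targets of FOXO and PPAR factors and their regulators, 0 were at least 2-fold higher over all kept cells and 5 were lower, beside 2.69% and 19.9% of all genes, with a median log2 ratio of -0.47 beside -0.25. Among the lower genes were some that act in fatty acid oxidation (Cpt2 at -1.77 and Acadm at -1.01), mitochondrial uncoupling (Ucp2 at -1.19) and lipid droplets (Plin2 at -1.18). Endothelial cells, whose markers were at 617.6 CPM in WT and 205.2 in cKO over all kept cells, held 546 of the 2032 WT UMIs of Ucp2. Acadm and Plin2 were also lower in projection neurons (-1.95 and -1.74) and GABAergic neurons (-1.17 and -2.05), as was Acadvl in GABAergic neurons (127 and 56 UMIs). Among radial glia/astrocytes the same list had 3 genes higher and 1 lower, beside 3.23% and 10.1%, with a median of 0.09. The higher ones were Foxo1 (174 and 372 UMIs, log2 ratio 1.34), Foxo3 (77 and 178, log2 ratio 1.45) and Pnpla2, a triglyceride lipase (121 and 256, log2 ratio 1.32). The lower one was Cpt2, which acts in mitochondrial fatty acid uptake (85 and 23, log2 ratio -1.64). In endothelial cells Foxo3 (2.23) and Pnpla2 (1.85) were higher, so that of 14 measured genes 2 were higher and 0 lower, beside 5.85% and 12.8% of all genes.

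Arrdc4 was the gene of the group that differed most widely. Its total was 1661 UMIs in WT against 10261 in cKO (29.97 and 188.8 CPM), a log2 ratio of 2.66 (interval 2.58 to 2.73), or 6.3-fold. Projection neurons held 884 in WT and 7066 in cKO (34.3 and 245.4 CPM, log2 ratio 2.84). GABAergic neurons held 366 and 1413 (42.1 and 165.4 CPM, log2 ratio 1.98), and Cajal-Retzius cells 24 and 220 (2.77). Every compared class with enough UMIs, 8 of 8, was thus at least 2-fold higher in cKO. Intermediate progenitors held 52 and 538 UMIs (2.79), cycling progenitors 126 and 347 (1.85), radial glia/astrocytes 54 and 239 (2.39), OPCs 56 and 115 (1.78) and endothelial cells 29 and 73 (2.26). Mural cells had 1 UMI in WT and 9 in cKO. At the level of clusters, 24 of 24 with enough UMIs were at least 2-fold higher, from 1.54 in GABAergic neurons led by Npas1 and Adarb2 to 3.15 in projection neurons led by Crym, with a median of 2.55. No single cell carried the difference: the cell with most Arrdc4 UMIs held 0.425% of those of cKO projection neurons. In projection neurons thinned to 1000 UMIs, 3.27% of WT and 19.1% of cKO cells held an Arrdc4 UMI (intervals 2.61 to 4.04 and 17.6 to 20.6), and 26.1% and 69.7% did without thinning at median depths of 8460 and 8616 UMIs. In thinned radial glia/astrocytes, the compared neural class with the lowest WT level, the shares were 1.41% and 5.31%. No class known to lack Arrdc4 was at hand as a measure of free RNA.

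**Figure D3:**
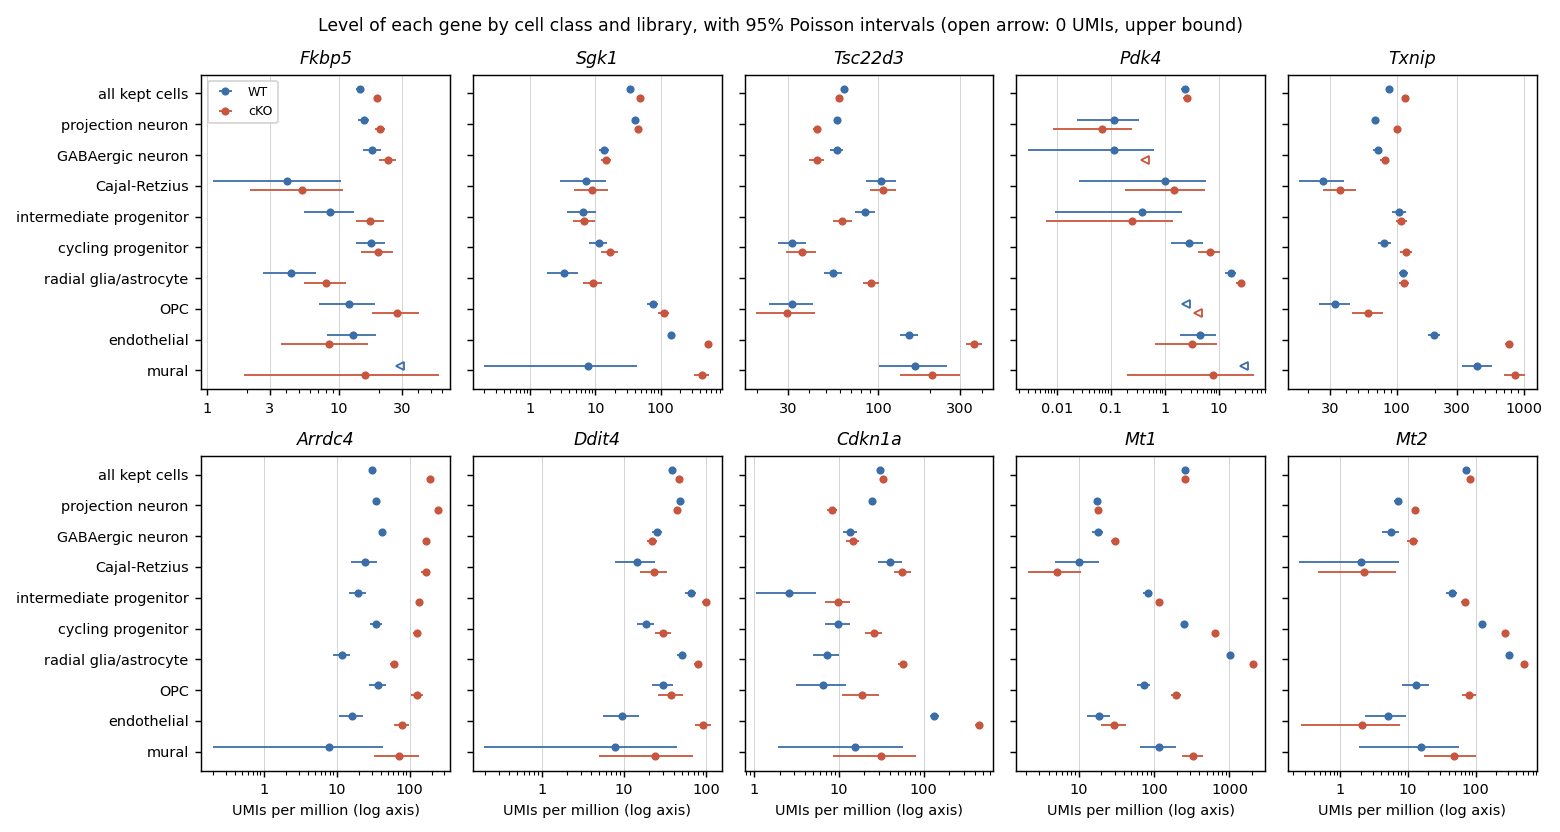
CPM of each gene (log axes, 1 panel per gene) over all kept cells and in each class for WT (blue) and cKO (red), with 95% Poisson intervals; an open arrow marks a class with 0 UMIs at its upper bound. The Arrdc4 points of cKO lie to the right of those of WT in every row, whereas Mt1 ran from 5.26 CPM in cKO Cajal-Retzius cells to 2057 in cKO radial glia/astrocytes among the 9 classes plotted.

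Txnip, the relative of Arrdc4 in the group, counted 4837 (WT) and 6346 (cKO) UMIs over all kept cells (87.3 and 116.8 CPM), a log2 ratio of 0.42. Endothelial cells held 356 in WT and 721 in cKO (197.6 and 763.5 CPM, log2 ratio 1.95, interval 1.77 to 2.14). Mural cells held 55 and 108 (431.5 and 854.5 CPM, log2 ratio 0.99). Projection neurons held 1751 and 2895 (67.9 and 100.5 CPM, log2 ratio 0.57). Within them the cluster led by Nts and Hs3st4 had 57 and 275 UMIs (1.62) and the one led by Fxyd7 and Slc17a7 had 82 and 163 (1.33). Radial glia/astrocytes had 522 and 447 UMIs (113.2 and 114.7 CPM), a log2 ratio of 0.02 with an interval from -0.17 to 0.20, in the class where Arrdc4 was 5.24-fold higher. Exons of Txnip overlap those of Gm15441 on the other strand. The 2 genes were counted separately, but the sources do not state how strand was used for reads in the shared exons. Gm15441 counted 98 (WT) and 145 (cKO) UMIs.

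The 250 bases before the RefSeq starts of Arrdc4 (chr7:68749239-68749488, minus strand) and Txnip (chr3:96557707-96557956, plus strand; both GRCm38.p6) are shown because both genes are known MondoA targets. Capitals mark the E-box CACGTG in Arrdc4 and, in Txnip, a tandem pair of CACGAG spaced by 5 bases.

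Arrdc4: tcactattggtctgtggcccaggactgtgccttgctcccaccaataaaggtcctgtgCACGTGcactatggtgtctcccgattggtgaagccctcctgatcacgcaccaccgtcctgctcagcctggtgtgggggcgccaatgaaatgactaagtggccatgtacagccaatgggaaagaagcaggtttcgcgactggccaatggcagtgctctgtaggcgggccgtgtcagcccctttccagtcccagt

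Txnip: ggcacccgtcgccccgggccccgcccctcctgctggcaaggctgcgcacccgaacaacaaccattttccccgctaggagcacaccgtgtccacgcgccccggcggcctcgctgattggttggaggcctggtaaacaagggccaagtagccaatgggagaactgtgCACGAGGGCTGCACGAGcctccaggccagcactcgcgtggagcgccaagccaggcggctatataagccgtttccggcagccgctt

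The E-box lay 187 to 193 bases before the start of Arrdc4 and was found in 6.02% of the 32851 windows and in windows of Fkbp5 and Sgk1 among the other genes. The tandem pair ended 68 bases before the start of Txnip and was found in no other window (1 of 32851), but its letters were picked after this window had been read. The CCAAT box was found 6 times in the Arrdc4 window, as in 0.0578% of windows with 6 or more, and 2 times in that of Txnip. Both strands were searched, and E-box and tandem pair do not overlap in these windows.

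The other genes of the same axis were counted next. Of 14 listed genes (the MondoA and ChREBP factors, thioredoxins, other arrestins, glucose transporters and hexokinases), 13 had enough UMIs over all kept cells, 0 were at least 2-fold higher in cKO and 2 were lower, beside 2.69% and 19.9% of all genes, with a median log2 ratio of -0.28 beside -0.25. The lower ones were Slc2a1, the glucose transporter of the blood-brain barrier (5507 and 2662 UMIs, log2 ratio -1.02), and Hk2, a hexokinase (215 and 81, log2 ratio -1.38). In endothelial cells Slc2a1 was at 1356 CPM in WT and 1601 in cKO (log2 ratio 0.24, interval 0.15 to 0.33), while over all kept cells endothelial markers were at 617.6 and 205.2 CPM and mural markers at 254.8 and 98.5. Of 6 genes measured in endothelial cells 0 differed 2-fold in either direction, beside 5.85% of all genes higher and 12.8% lower. Arrdc2 was lower in projection neurons (136 and 73 UMIs, log2 ratio -1.06).

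Ddit4, at chr10:59949669-59951834, was highest in ratio in endothelial cells, with 17 UMIs in WT and 86 in cKO (9.44 and 91.1 CPM), a log2 ratio of 3.27 (interval 2.51 to 4.12). In the Egfl7-led endothelial cluster the counts were 10 and 64 (3.02), and with the mean of each cell's CPM the class ratio was 1.86. Radial glia/astrocytes held 232 and 312 (50.3 and 80.1 CPM, log2 ratio 0.67). Here again the Aqp4-led cluster (86 and 143 UMIs, log2 ratio 1.55, interval 1.16 to 1.96) was above the Aldoc-led cluster (146 and 169, log2 ratio 0.03, interval -0.30 to 0.36). Projection neurons counted 1250 UMIs in WT and 1276 in cKO (48.5 and 44.3 CPM, log2 ratio -0.13, which turned to 0.78 with the stricter cell filter). Intermediate progenitors, the neural class with the highest Ddit4 level, had 65.1 CPM in WT and 98.6 in cKO (0.60). Of 10 genes of mTOR signalling and of Sgk1 partners, 2 were at least 2-fold higher over all kept cells and 0 lower, beside 2.69% and 19.9%, with a median of 0.23. These were Mtor itself (967 and 1941 UMIs, log2 ratio 1.03) and its inhibitor Tsc1 (1939 and 3953, log2 ratio 1.06). Higher in radial glia/astrocytes were Mtor (1.02) and Rictor (1.20), a subunit of mTOR complex 2. In GABAergic neurons Mtor (1.30) and Tsc1 (1.05) were higher and Nedd4l, a ubiquitin ligase that Sgk1 phosphorylates, was lower (-1.21). In projection neurons Tsc1 was higher (1.00) and Eif4ebp1, a translation repressor, lower (-1.85).

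Cdkn1a, at chr17:29090976-29100727, differed in opposite directions between classes, while over all kept cells its counts were near each other, 1684 UMIs in WT and 1785 in cKO (30.4 and 32.8 CPM, log2 ratio 0.11). Projection neurons held 633 in WT and 240 in cKO (24.5 and 8.34 CPM), a log2 ratio of -1.56 (interval -1.78 to -1.34). Radial glia/astrocytes held 33 in WT and 220 in cKO (7.16 and 56.5 CPM), a log2 ratio of 2.98 (interval 2.45 to 3.55), or 7.89-fold. Endothelial cells held 241 and 421 (133.8 and 445.8 CPM, log2 ratio 1.74) and cycling progenitors 36 and 72 (9.86 and 25.7 CPM, log2 ratio 1.38). The cycling progenitor ratio fell to 0.51 with each library clustered alone. In GABAergic neurons the counts were 118 and 125 (0.11). The difference between classes was not tested.

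The lower Cdkn1a count of projection neurons came from few clusters. The cluster led by Fxyd7 and Slc17a7 held 289 UMIs in WT and 39 in cKO (117.4 and 20 CPM, log2 ratio -2.55), and the one led by Nts and Hs3st4 129 and 40 (83 and 16.4 CPM, log2 ratio -2.34). Another cluster, led by Nwd2 and Inhba, held 125 and 59 (-0.98). A single WT cell carried 46 UMIs, or 7.27% of the WT projection neuron total, and without cells over 30000 UMIs the log2 ratio was -1.22. It was -0.98, short of 2-fold, without a cell filter. Thinned to 1000 UMIs, 1.52% of WT and 0.632% of cKO projection neurons held a Cdkn1a UMI, with intervals of 1.07 to 2.07 and 0.369 to 1.01. Erythroid markers were at 174 CPM in WT and 5.35 in cKO projection neurons, and 7 mural and 8 endothelial markers at 9.57 and 7.99 CPM in WT and 1.81 and 4.45 in cKO; their part in the ratio was not tested. Within the radial glia/astrocytes both clusters were higher in cKO, the Aqp4-led one with 13 and 77 UMIs (3.39) and the Aldoc-led one with 20 and 143 (2.66). A single WT cell there carried 12 of the 33 UMIs. Thinned shares in this class were 0.785% in WT and 4.65% in cKO (intervals 0.255 to 1.82 and 2.90 to 7.01). Radial glia/astrocytes had erythroid markers at 262.2 CPM in WT and 4.88 in cKO, endothelial markers at 284.6 and 118.6 and mural markers at 144.5 and 124.7, and their part in the ratios of this class was not tested. Among GABAergic clusters the one led by Npas1 and Adarb2 held 5 and 47 UMIs (2.93), while the one led by Six3 and Penk held 27 and 28 (0.04). Ependymal cells, too few for the comparison of classes (43 and 13 cells), had 202 and 142 UMIs, or 270 and 637.5 CPM.

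**Figure D4:**
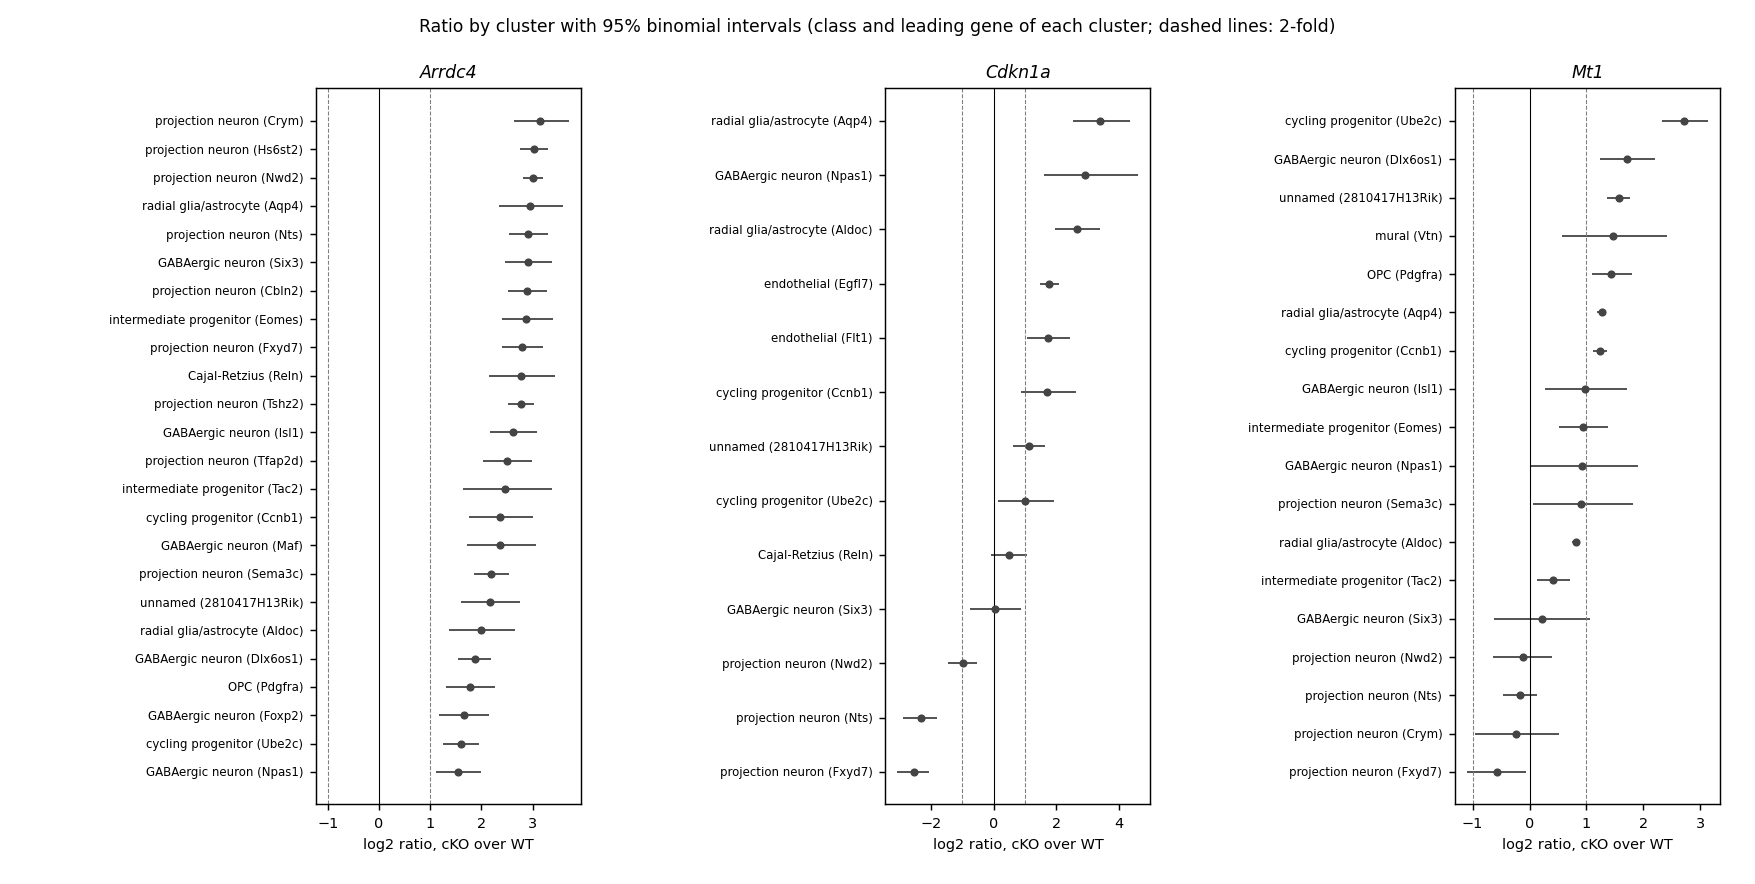
Log2 ratio of CPM, cKO over WT, with 95% intervals for Arrdc4, Cdkn1a and Mt1 in every cluster with at least 50 UMIs, labelled with its class and leading gene; dashed lines mark 2-fold. All 24 Arrdc4 points lie above 1, whereas the Cdkn1a points run from -2.55 in a projection neuron cluster to 3.39 in a radial glia/astrocyte cluster.

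Of 19 other p53 targets and cell cycle inhibitors, 1 was at least 2-fold higher over all kept cells and 1 lower, beside 2.69% and 19.9%, with a median log2 ratio of 0.05. Mdm2, the ubiquitin ligase that degrades p53, counted 2312 UMIs in WT and 5184 in cKO (log2 ratio 1.19), and Ccng1 counted 867 and 415 (-1.04). In projection neurons, where Cdkn1a was lower, Mdm2 was higher (960 and 2689, log2 ratio 1.33) while Ccng1 (-1.87) and Pmaip1 (-1.71) were lower. In GABAergic neurons Mdm2 was likewise higher (1.20) and Ccng1 lower (-1.13). In radial glia/astrocytes 4 of 15 measured genes were higher, beside 3.23% of all genes, Mdm2 (1.03), Bbc3 (1.04), Phlda3 (1.22) and Trp53inp1 (1.49), and Cdkn1c, another cell cycle inhibitor, was lower (139 and 45 UMIs, log2 ratio -1.38). In endothelial cells Sesn1 (64 and 138, log2 ratio 2.04) and Trp53inp1 (20 and 61, log2 ratio 2.54) were higher and Trp53 itself was lower (330 and 48, log2 ratio -1.85).

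Mt1 and Mt2 lie side by side on chromosome 8, at chr8:94179082-94180327 and chr8:94172664-94173568, with 5513 bases between them. Their levels followed each other over the 18 combinations of class and library, with a Pearson r of 0.95 on log2(CPM + 10) as a description, since classes of 1 library share that library. Radial glia/astrocytes held 4736 Mt1 UMIs in WT and 8016 in cKO (1027 and 2057 CPM), a log2 ratio of 1.00 (interval 0.95 to 1.05) that was past 2-fold in 7 of 13 settings, and 1433 and 2053 Mt2 UMIs (0.76, in 0 of 13). The mix of Aqp4-led and Aldoc-led cells in this class differed between the libraries, and its part in these ratios was not tested. Cycling progenitors held 917 and 1825 Mt1 UMIs (251.2 and 652.5 CPM, log2 ratio 1.38) and 451 and 774 Mt2 UMIs (1.16). OPCs held 111 and 180 Mt1 UMIs (1.44) and 20 and 74 Mt2 UMIs (13.2 and 81.5 CPM, log2 ratio 2.63). Both genes were thus at least 2-fold higher in cKO in cycling progenitors and OPCs. In ependymal cells, too few to be compared (43 and 13 cells), Mt1 had a log2 ratio of -0.57 (interval -0.66 to -0.49) and Mt2, with 1488 and 317 UMIs, one of -0.48 (interval -0.66 to -0.31). Projection neurons held 456 and 521 Mt1 UMIs (17.7 and 18.1 CPM, log2 ratio 0.03), of which 1 WT cell carried 17.1% of the WT count, and 185 and 369 Mt2 UMIs (0.84). With the stricter cell filter the projection neuron ratios turned to -1.29 for Mt1 and -1.53 for Mt2. GABAergic neurons held 156 and 261 Mt1 UMIs (0.77) and 49 and 100 Mt2 UMIs (1.06), of which the Mt2 ratio turned to -0.32 with the stricter filter. Erythroid markers in GABAergic neurons were at 602 CPM in WT (5 of 5 detected) and 5.97 in cKO (4 of 5), and their part in the ratios of this class was not tested. In endothelial cells Mt1 counts were 34 and 28, of which 1 WT cell carried 52.9% of the WT count.

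The highest Mt1 level was in ependymal cells, at 8801 CPM in WT and 5913 in cKO (6585 and 1317 UMIs in 43 and 13 cells). The Mt1 total over all kept cells was 14320 UMIs in WT against 13905 in cKO (258.4 and 255.8 CPM), a log2 ratio of -0.01 that became 0.72 with the stricter cell filter. Both libraries' totals mix this class with the others, and ependymal cells held 0.655% of kept WT and 0.219% of kept cKO cells. Thinned to 1000 UMIs, 57.0% of WT and 74.8% of cKO radial glia/astrocytes held a Mt1 UMI, against 0.758% and 1.04% of projection neurons. Unthinned, the shares were 94.6% and 98.5% in radial glia/astrocytes and 6.47% and 9.19% in projection neurons.

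The windows before the RefSeq starts of Mt1 (chr8:94178839-94179088) and Mt2 (chr8:94172368-94172617), both on the plus strand of GRCm38.p6, are shown because the levels of the pair followed each other. Capitals mark TGCNCNC, the core of the metal response element bound by the zinc-sensing factor Mtf1, on either strand.

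Mt1: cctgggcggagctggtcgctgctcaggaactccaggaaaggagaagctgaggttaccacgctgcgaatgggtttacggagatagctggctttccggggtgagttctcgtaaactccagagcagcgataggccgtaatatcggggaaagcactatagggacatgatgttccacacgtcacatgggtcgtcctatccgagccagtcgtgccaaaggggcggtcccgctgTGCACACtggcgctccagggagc

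Mt2: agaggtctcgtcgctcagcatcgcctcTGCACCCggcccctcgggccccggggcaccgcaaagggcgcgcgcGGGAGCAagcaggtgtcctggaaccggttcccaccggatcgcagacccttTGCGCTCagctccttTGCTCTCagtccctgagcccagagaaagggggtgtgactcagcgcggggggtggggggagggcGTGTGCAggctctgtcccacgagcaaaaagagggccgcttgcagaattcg

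The core was found 5 times in the Mt2 window, as in 0.344% of windows with 5 or more, and 1 time in that of Mt1, as in 44.4% of windows with at least 1. Only the 250 bases before 1 RefSeq start of each gene were searched. Cores past that start or before other starts were not counted, so these numbers do not describe the whole promoter of Mt1 or Mt2. The bases after the RefSeq start of Mt2 were in no GENCODE transcript of the gene. Of 9 other genes of metal handling, 1 was at least 2-fold higher over all kept cells and 2 were lower, beside 2.69% and 19.9%, with a median log2 ratio of -0.21. Mtf1 had 1286 UMIs in WT and 2872 in cKO (1.19). Mt3, the brain metallothionein, was lower, with 26178 and 11306 UMIs (-1.18), as was Slc39a10, a zinc importer (3638 and 1434, log2 ratio -1.32). The zinc exporter Slc30a1 was higher in GABAergic neurons (60 and 196, log2 ratio 1.74) and projection neurons (185 and 447, log2 ratio 1.11). In projection neurons Mtf1 was higher (1.42) and Mt3 (-1.30) and Slc39a10 (-1.36) were lower, and Mt3 was also lower in GABAergic neurons (-1.52). Radial glia/astrocytes held 17472 of the WT and 8426 of the cKO Mt3 UMIs (3790 and 2163 CPM), a log2 ratio of -0.81 that did not reach 2-fold. Mt3 was at 59.1 and 24 CPM in projection neurons and at 51.9 and 18.15 in GABAergic neurons. The part of free RNA in these neuronal ratios was not tested.

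Lists of other stress responses were counted over all kept cells, where 2.69% of all genes were higher and 19.9% lower, and nothing is read from their counts beside these shares. Of 10 measured genes of the integrated and endoplasmic reticulum stress responses 0 were at least 2-fold higher and 2 lower (Chac1 -1.45 and Xbp1 -1.37). Of 7 heat shock genes 0 were higher and 2 lower (Hspa1a -1.90 and Hspb1 -2.20). Of 10 hypoxia genes 0 were higher and 2 lower (Ankrd37 -1.18 and Ndrg1 -1.23), and of 10 immediate early genes 0 were higher and 1, Atf3, was lower (-1.75). Endothelial cells held 133 of the 746 WT UMIs of Ankrd37 and 310 of the 748 of Hspb1, with log2 ratios of -1.48 and -1.28 within that class, and over all kept cells endothelial markers were at 617.6 and 205.2 CPM and mural markers at 254.8 and 98.5. Chac1 (-3.05), Xbp1 (-1.48), Hspa1a (-2.84), Egln3 (-1.04) and Ndrg1 (-1.40) were lower in projection neurons, and Xbp1 (-1.45), Egln3 (-2.56) and Ndrg1 (-1.61) in GABAergic neurons. Among radial glia/astrocytes Herpud1 was higher (161 and 301 UMIs) and Xbp1 lower (-1.33). Cajal-Retzius cells had, beside Per1, higher levels of Nfkbia (1.07), Trp53inp1 (1.13), Mtf1 (1.79), Tsc1 (1.48) and Fos (1.01), and Hsph1 (-1.69) and Jun (-1.61) lower.

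The genes whose log2(CPM + 10) followed each of the 10 genes most closely over the 18 combinations of class and library, among 12586 genes, differed from gene to gene. For Arrdc4 they were Thoc3 (r = 0.94) and Cops8 (0.93), for Sgk1 Il4ra and Zfpm1 (0.89 and 0.88), for Tsc22d3 Ndufv1 and Lgals9 (0.91 and 0.88) and for Txnip Pxdn and Tns1 (0.92 and 0.92). Pdk4 was followed most closely by Lpar1 (0.95) and Col4a5 (0.93), Cdkn1a by Sh3glb1 (0.90) and Ccdc85b (0.88), Fkbp5 by Mars2 (0.85) and Ccdc25 (0.85) and Ddit4 by Tada2a (0.80) and Emx1 (0.77). Mt1 and Mt2 were each other's closest genes, followed by Pacsin3 (0.93) and Gas1 (0.94). Txnip and Arrdc4, the related arrestins, had an r of -0.12 with each other. The closest genes were picked as the highest r among 12586 genes over 18 points, and classes of 1 library share that library. Their values of r are therefore a description only.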

How the data were processed

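The 10 genes, the gene lists and the call limits were chosen with earlier results of these data known. Dissociated P0 cells of 1 WT and 1 cKO library were sequenced by the authors on the 10x Chromium platform. The deposited values were raw UMI counts per gene and barcode. The submitters' processing notes name STAR, Cell Ranger 2, Seurat and mm9, whereas the matrix headers give software version 3.0.1, and 27645 of 27998 gene identifiers (98.7%) matched GENCODE M21 on GRCm38. The annotation and the use of strand in counting are not given in the sources used here. A combined matrix holding 94.51% of the cKO and 100% of the WT UMIs served as an alternative, and the authors' marker tables, which hold log fold changes and p-values of numbered clusters, were not used.

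Cells with at least 500 genes and at most 10% mitochondrial UMIs were kept (35.88% of WT and 32.9% of cKO barcodes were over 10%). Doublets with a Scrublet score over 0.2 (200 WT and 151 cKO cells) were left out, a limit set after seeing that the automatic threshold marked 165 and 0. Cells were clustered in scanpy 1.11.5 (Python 3.11.15) on 2000 variable genes scaled within each library, 30 principal components, 15 neighbours and Leiden resolution 1, and clusters were named from marker lists. Clusters whose leading genes held more markers of other classes were left unnamed, among them vessel clusters. Re-clustering of the non-neural cells and leaving an S-phase cluster unnamed were decided after seeing the data, as was the alternative without cells over 30000 UMIs. UMIs were summed per class and library. Ratios carry exact conditional binomial 95% intervals, levels exact Poisson and shares exact Clopper-Pearson intervals (SciPy 1.17.1), and a count of 0 allows up to 3 UMIs of the total. edgeR 4.0.16 gave TMM scaling factors only, and no test was made because there is 1 library per genotype. On simulated counts for all kept cells (14672 genes), 100% of genes made with a log2 change of 1.5, 96% of those made with -1.5 and 0.0415% of unchanged genes passed the 2-fold limit. These were Poisson counts drawn from the same pooled rates for both libraries. The shares therefore hold for counting error only, and differences between animals, sexes or preparations were not simulated. Counts by class, which are smaller, were not simulated either, so the shares do not cover the calls by class.

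Named genes were the 10 genes, the list genes at least 2-fold apart over all kept cells, in neurons or in radial glia/astrocytes with at least 50 UMIs, and the 2 genes most like each of the 10 over classes (at least 200 UMIs, Pearson r of log2(CPM + 10)). List genes named in endothelial cells, and other genes named below 2-fold, were chosen after their values were seen. Promoter windows of 250 bases came from RefSeq on GRCm38.p6. Some genes that meet this rule are not reported here.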

Additional observations from a re-analysis of the deposited data

Results flagged for a closer look

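Cdkn1a had a log2 ratio of cKO over WT of -1.558 in projection neurons, against 1.384 in cycling progenitors, 2.98 in radial glia/astrocytes and 1.737 in endothelial cells, so the classes lay on opposite sides of 0. The cycling progenitor ratio fell to 0.51 with each library clustered alone, and that of projection neurons to -0.98 without a cell filter. This difference between classes was not tested, since each genotype has 1 library.

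Arrdc4 was also higher in cKO among the barcodes left out by the filters on genes, mitochondrial UMIs and doublets, which entered no class. The 4149 WT barcodes held 330 Arrdc4 UMIs (23.4 CPM) and the 3269 cKO barcodes 1693 (129.3 CPM), a log2 ratio of 2.468 (95% interval 2.30 to 2.64). Arrdc4 was picked as higher in cKO from counts of these same libraries, so this value is a description and no separate check.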

How the results depend on the processing

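Over all kept cells 1 gene, Arrdc4, was at least 2-fold higher and 0 lower in every setting run, in which 2.60% to 6.34% of all genes were higher and 13.1% to 22.9% lower. By class, 25 of 65 pairs of gene and class were higher and 1 lower, beside 4.12% and 11.7% of all such pairs. With a stricter cell filter (at least 1000 genes, at most 5% mitochondrial UMIs) 15 of 41 pairs were higher and 2 lower, beside 6.32% and 9.41%. The lower pairs numbered 3 of 78 with each library clustered alone (beside 12.1%), 2 of 77 at resolution 0.5 (11.2%), 2 of 65 with the mean of each cell's CPM (12.8%) and 2 of 79 with a minimum of 10 UMIs (16.2%); the causes were not tested. Mt2 in GABAergic neurons turned to -0.32 under the stricter filter, and in projection neurons, where neither gene was called, Mt1 turned to -1.29, Mt2 to -1.53, Sgk1 to -0.19 and Ddit4 to 0.78. Mt1 over all kept cells became 0.72. Of 916 log2 ratios over settings, 788 moved by less than their counting interval, 127 moved by more and 1 turned sign after a call.

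Cdkn1a in projection neurons ran from -2.54 (stricter filter) to -0.98 (no cell filter), and in cycling progenitors down to 0.51 with each library clustered alone. In endothelial cells Sgk1, Txnip, Arrdc4, Ddit4 and Cdkn1a were past 2-fold in 12 of 12 settings and Tsc22d3 in 9, with 0.75 for the mean of each cell's CPM, which also gave 1.86 for Ddit4. Fkbp5 in intermediate progenitors was past 2-fold in 6 of 13 settings and Mt1 in radial glia/astrocytes in 7 of 13. Mt1 in endothelial cells ran from -1.52 to 2.21. No paired analysis was possible because each genotype has 1 library. The mural values rest on 24 WT and 22 cKO cells.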

Other observations

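In 2 groups of immune cells too small to be compared, Sgk1 was also higher in cKO: microglia/macrophages held 10 UMIs in WT and 42 in cKO (27.5 and 210.4 CPM) and a cluster led by Spp1, S100a9 and S100a8 (21 and 14 cells) held 14 and 44 (43.6 and 160.6 CPM). That cluster also had C1qc, C1qb and Tyrobp among its leading genes, with 6 granulocyte markers at 10020 CPM in WT and 3277 in cKO and 8 microglial markers at 14402 and 15100. Its cKO cells also held endothelial markers at 733.5 CPM and mural markers at 613.1, against 18.7 and 12.5 in WT, and the part of these in the Sgk1 value was not tested. Mt1 there had 473 and 215 UMIs, a log2 ratio of -0.91 that did not reach 2-fold, and Mt2 was lower in cKO (47 and 10 UMIs, 4.01-fold), while microglia/macrophages held 197 and 156 Mt1 UMIs (0.53).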
